A study of Oryctolagus cuniculus with 8 samples.

Results

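Mitogen-activated protein (MAP) kinase cascades and their built-in brakes were examined in the side population of the rabbit limbal epithelium. The genes were chosen by symbol: MAP kinases (MAPK), the kinases of the 3 tiers above them (MAP2K, MAP3K and MAP4K), dual-specificity phosphatases (DUSP), Sprouty genes (SPRY) and Sprouty-related SPRED genes, each with an entry of its own. This gave 51 genes of 20922 entries in the table, namely 6 MAPK, 4 MAP2K, 13 MAP3K, 4 MAP4K, 18 DUSP and 6 SPRY or SPRED genes. Side population (SP) cells expel the DNA dye Hoechst and stay dim in a cell sorter, and the remainder is called the non-side population (NSP). Both came from the limbal epithelium, which borders the cornea, of New Zealand white rabbits, with neither a treatment nor an age given. An Ion Proton sequencer read total RNA of 4 samples per group. Whether the samples of a group are separate animals is not stated in the labels, and the p-values cover only the spread among samples, part of which may be technical. MAPK7, MAPK8, MAPK9, MAPK11, MAP2K2, MAP2K3 and DUSP4 are not analysed here.

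A MAP kinase cascade is a relay in which a MAP3K phosphorylates a MAP2K, which then phosphorylates a MAP kinase, and MAP4Ks act on the upper tier. The ERK branch is classically driven by growth factor receptors through RAS and RAF, while the p38 and JNK branches answer stress and cytokines. DUSP phosphatases switch MAP kinases off, Sprouty and SPRED proteins restrain the step between receptor and RAF, and several of these inhibitors are themselves transcribed in response to ERK. In the limbal and corneal epithelium these cascades are best known for their part in proliferation, migration and wound closure.

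The 8 libraries held 15553295 to 18931836 exon reads in SP and 20445565 to 23529101 in NSP. The 51 genes took 0.449% to 0.632% of the reads of an SP library and 0.423% to 0.529% of those of an NSP library. The labels call both groups limbal epithelial cells, so cell type markers were summed as CPM, the read count per gene scaled to the size of the library. All 12 epithelial markers were read, and their sum was 809.4 to 6614 CPM in SP against 21620 to 39400 CPM in NSP. The sum of 6 pan-leukocyte markers was 1536 to 4769 CPM in SP and 215.5 to 590.7 CPM in NSP, that of 6 T and NK cell markers 501.9 to 1356 CPM and 3.05 to 7.83 CPM, and that of 4 B and plasma cell markers 267 to 802.9 CPM and 0 to 0.90 CPM. The sum of 7 endothelial markers was 1047 to 9856 CPM in SP and 0.966 to 2.63 CPM in NSP, and that of 5 myeloid markers was 229.5 to 412 CPM and 23.7 to 38.8 CPM. The remaining markers covered 7 stromal genes (212.8 to 384.3 against 36.8 to 53.8 CPM), 6 melanocyte genes (1829 to 12910 against 90.6 to 258.4 CPM) and 4 Schwann cell genes (232.7 to 1015 against 1.35 to 10.4 CPM). CD8B, MZB1, COL3A1, LUM and KERA had no read in any NSP library. Their part in the differences given here was not tested, and in such bulk samples fewer cells of a type and less RNA per cell cannot be told apart.

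Of the 51 genes, 46 passed the filter on low counts, and 15 of these differed between SP and NSP: 9 were higher in SP and 6 were lower (limma-voom, Benjamini-Hochberg adjusted p under 0.05 over all 10012 genes tested). Among all genes tested, 30.7% were called, 17.7% as higher and 13.0% as lower, so the 32.6% called here is near the share of the whole table. The highest of the called fold changes belonged to MAP4K1 and SPRY4, which were close to silent in NSP. The lowest were those of DUSP14, MAPK13 and DUSP7. Groups did not overlap for 16 of the 46 genes (9 with SP above, 7 with SP below), or 34.8% against 32.8% of all genes tested. The median log2 fold change of the 46 genes was 0.04, and that of all genes was 0.12. Scaling moved that balance: with median-ratio factors 6 genes were higher and 7 lower (46.2% of the calls higher in place of 60%), and with upper-quartile factors 5 were higher and 8 lower (38.5%). Over all genes the share of higher calls went from 57.7% to 51% and 46.9%, and the median of all genes from 0.12 to 0.0043 and -0.06.

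**Figure D1:**
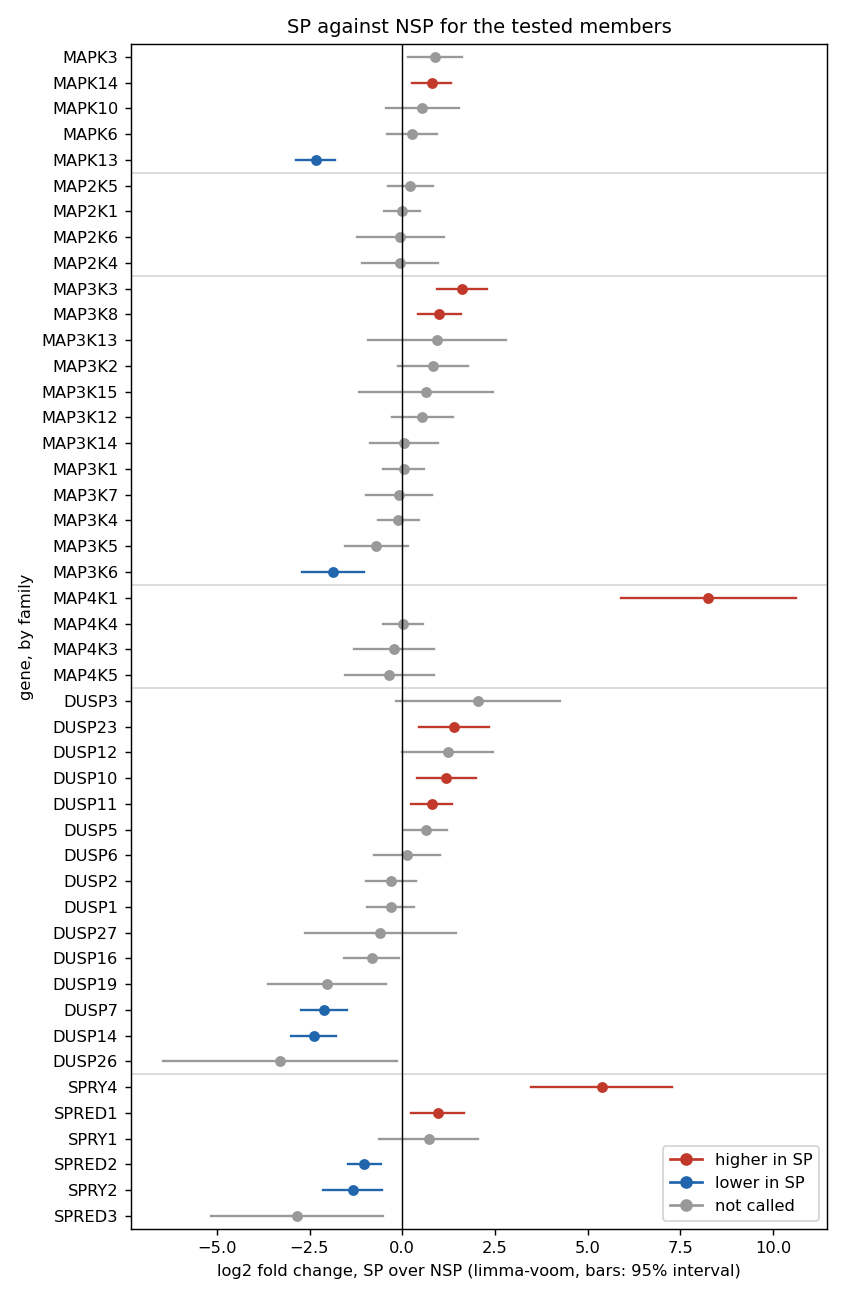
log2 fold change of SP over NSP (points, horizontal axis) with its 95% interval (bars) for the 46 tested genes, ordered by family and, within a family, by value. Red points are the 9 genes called higher and blue points the 6 called lower by limma-voom, grey points were not called, and the points farthest to the right are MAP4K1 (8.26) and SPRY4 (5.38).

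The calls differed in how well they held. In 14 alternatives (other scalings, filters and weights, and each library left out) 8 genes kept their call every time: MAP4K1, SPRY4 and MAP3K3 as higher, and MAPK13, DUSP14, DUSP7, MAP3K6 and SPRED2 as lower. The other 7 calls, 6 of them higher, were lost in at least 1 alternative. In the authors' deposited table, whose test is named EDGE in the headers, 10 of the 15 have a corrected p under 0.05, and DUSP10, DUSP11, MAP3K8, MAPK14 and SPRED1 do not.

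Among the MAP kinases themselves, both p38 genes with an entry changed, in opposite directions. MAPK13 encodes p38 delta, a p38 isoform known from epidermis and other epithelia. Its level was 60.3, 94.9, 53.6 and 64.4 CPM in SP libraries 1 to 4 and 311, 361, 299 and 386 CPM in NSP libraries 1 to 4. Every SP library lay below every NSP library by a wide margin. Means were 68.3 ± 18.3 CPM (SD, n = 4) in SP and 339 ± 41.1 CPM (SD, n = 4) in NSP, a log2 fold change of -2.34 ± 0.24 (SE, limma-voom adjusted p = 0.000183). MAPK14 encodes p38 alpha, the broadly expressed isoform that most stress signals use. It was read at 119, 142, 141 and 207 CPM in SP and at 77.7, 104, 72.5 and 92.5 CPM in NSP. The groups did not overlap, although SP library 1 and NSP library 2 were close to each other. Its log2 fold change was 0.79 ± 0.24 (SE, limma-voom adjusted p = 0.0279), or 0.67 above the median of all genes. That call was lost with median-ratio (limma-voom adjusted p = 0.0644) and upper-quartile factors (0.0781) and without SP 2, SP 4, NSP 1, NSP 3 or NSP 4, where the limma-voom adjusted p reached 0.132.

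A ratio of both p38 genes within a library does not depend on scaling. The log2 ratio of MAPK13 to MAPK14 reads was -0.98, -0.58, -1.39 and -1.68 in the SP libraries and 2.00, 1.79, 2.04 and 2.06 in the NSP libraries. MAPK14 thus had more reads than MAPK13 in every SP library, and fewer in every NSP library. Reads are not corrected for exon length (1.569 kb for MAPK13, 3.825 kb for MAPK14), so they do not rank the levels of these genes. As CPM per kilobase of exon, the group means of MAPK13 and MAPK14 were 43.5 and 39.8 in SP and 216.3 and 22.7 in NSP. The log2 ratio differed between SP and NSP by -3.13 (8.78-fold). An exact permutation test over samples, with 70 arrangements of the labels, gave a two-sided p of 0.0286, the smallest it can give. Adjusted over the 7 pairs compared it was 0.05, at and not under the threshold. Since every SP library was below every NSP library for MAPK13 and above for MAPK14, the ratio had to separate the groups. The exact permutation p was thereby fixed at its smallest value and adds no support of its own.

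MAPK3 encodes ERK1. Its reads came to 103, 167, 131 and 323 CPM in SP and 104, 84.2, 79.3 and 90 CPM in NSP. SP 4 was the highest and SP 1 was just under the highest NSP library. The log2 fold change of 0.88 ± 0.33 was not called (SE, limma-voom adjusted p = 0.0664), but it was without SP 1 (1.11, limma-voom adjusted p = 0.0242) and with sample quality weights (limma-voom adjusted p = 0.0233). Without SP 4 it was 0.39. MAPK6, which encodes the atypical kinase ERK3, had 389, 288, 286 and 148 CPM in SP and 202, 236, 281 and 169 CPM in NSP, and the groups overlapped (log2 fold change 0.26 ± 0.31, SE). MAPK10, the JNK gene best known from neurons, ranged from 3.69 to 5.91 CPM in SP and from 2.25 to 5.35 CPM in NSP and was not called either. MAPK4, the gene of the atypical kinase ERK4, stayed under the filter with 10 reads in SP, all in SP 3, and 13 in NSP.

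**Figure D2:**
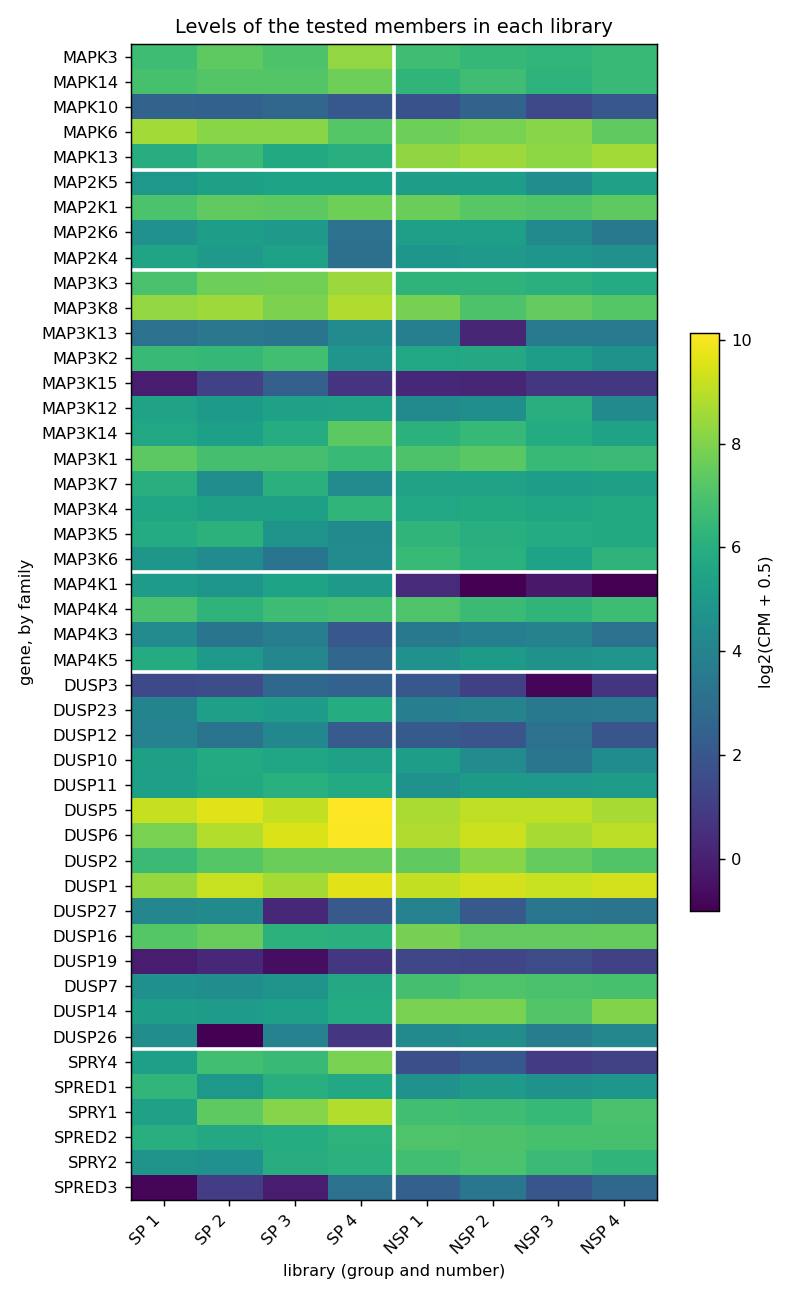
Level of the 46 tested genes (rows, by family) in the 4 SP and 4 NSP libraries (columns), as log2 of CPM with 0.5 added (color). The rows of MAP4K1 and SPRY4 are dark in all 4 NSP libraries, those of MAPK13, DUSP14 and DUSP7 are lighter in NSP, and DUSP1, DUSP5 and DUSP6 are light in both groups.

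None of the 4 MAP2K genes was called, while 30.7% of all genes tested were. MAP2K1 encodes MEK1, the kinase directly above ERK. Its values were 126, 172, 159 and 202 CPM in SP and 199, 153, 139 and 164 CPM in NSP, with means of 165 ± 31.5 and 164 ± 25.4 CPM (SD, n = 4 each). The ranges covered almost the same span, and the log2 fold change was 0.00 with a 95% interval from -0.49 to 0.49. MAP2K5, the kinase of the ERK5 branch, had 29.8, 39.5, 43.8 and 43.4 CPM in SP and 36.3, 36.9, 21.8 and 40.7 CPM in NSP. MAP2K4, which acts on JNK and p38, was spread more widely in SP (45.2, 30.8, 41.4 and 8.08 CPM) than in NSP (28.2, 32.2, 28.4 and 24.6 CPM). MAP2K6, a p38 activator, ranged from 8.7 to 36.2 CPM in SP and from 10.9 to 38.8 CPM in NSP. SP 4 was the lowest library for both, and the limma-voom adjusted p values of the 4 genes were 0.581 to 0.999.

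In the MAP3K tier, 2 of 12 tested genes were higher in SP and 1 was lower, or 25% called against 30.7% of all genes tested. MAP3K3 encodes MEKK3, a kinase above the ERK5 branch that blood vessel development requires in mice. Its level was 123, 201, 219 and 351 CPM in SP and 74.8, 76, 66.5 and 56.9 CPM in NSP. The lowest SP library, SP 1, was still above the highest NSP library. In the fit the log2 fold change was 1.62 ± 0.31 (SE, limma-voom adjusted p = 0.0032). The endothelial marker sum was also lowest in SP 1 (1047 CPM) and highest in SP 4 (9856 CPM), as was the sum of 5 immediate early genes (3811 and 8655 CPM), and the part of either in this difference was not tested.

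MAP3K8 encodes TPL2 (COT), the kinase that couples inflammatory receptors to MEK and ERK. It stood at 319, 363, 246 and 442 CPM in SP and at 231, 131, 175 and 147 CPM in NSP. SP 3 and NSP 1 came close to each other, and the groups did not overlap. The log2 fold change of 1.00 ± 0.26 (SE, limma-voom adjusted p = 0.0147) was no longer called without SP 4, NSP 2 or NSP 4 (adjusted p up to 0.0562). MAP3K6 encodes ASK2, a stress-activated kinase that works together with ASK1. Its values were 28.9, 20.2, 9.57 and 20.4 CPM in SP and 91.1, 68.4, 42.9 and 75.9 CPM in NSP. Library 3 was the lowest of each group, and NSP 3 was still above every SP library. The gene had a log2 fold change of -1.88 ± 0.38 (SE, limma-voom adjusted p = 0.00429). MAP3K5, the gene of ASK1 itself, was read at 57, 70.2, 26.9 and 19.1 CPM in SP and 77.7, 65.1, 57.2 and 53.8 CPM in NSP, a log2 fold change of -0.70 ± 0.38 (SE) that was not called (limma-voom adjusted p = 0.191).

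The other MAP3K genes were not called, and some turned on 1 library. MAP3K2, the closest relative of MAP3K3, was read at 94.1, 84.8, 107 and 27.8 CPM in SP and 50.3, 52.3, 36.2 and 26 CPM in NSP. SP libraries 1 to 3 lay above all NSP libraries and SP 4 did not, and without SP 4 the gene was called higher (log2 fold change 1.09 with a limma-voom adjusted p = 0.0123, against 0.84 and 0.167 with it). Sample quality weights also gave that call (limma-voom adjusted p = 0.0237). MAP3K12, a kinase of the JNK branch known from axon injury, had 42.6, 32.7, 41.2 and 42.3 CPM in SP and 19.2, 22.7, 62.9 and 19.8 CPM in NSP. NSP 3 alone was above SP, and without it the gene was called higher (log2 fold change 0.94 with a limma-voom adjusted p = 0.0263, against 0.55 and 0.295). Without NSP 1 the value was 0.23. MAP3K13, its closest relative, was at 8.8 to 20.1 CPM in SP and at 11.6 to 13.4 CPM in 3 NSP libraries, but at 0.646 CPM in NSP 2. Its log2 fold change was 0.94 with all libraries and -0.13 without NSP 2, and neither was called.

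MAP3K14 encodes NIK, the kinase of the noncanonical NF-kB pathway. It had 49.8, 38.2, 59 and 161 CPM in SP and 70.2, 86.1, 57.9 and 42.2 CPM in NSP. SP 4 alone was above the NSP range, and the log2 fold change was 0.04 with all libraries and -0.53 without SP 4. MAP3K7, which encodes TAK1, split the SP libraries into high (63.9 and 66.2 CPM in SP 1 and SP 3) and low ones (21.6 and 20.3 CPM in SP 2 and SP 4), with the NSP libraries between them at 35.9 to 42.4 CPM. MAP3K1, the gene of MEKK1, had 93.6 to 159 CPM in SP and 92.2 to 155 CPM in NSP. MAP3K4, the gene of MEKK4, had 39.8 to 77.2 CPM in SP and 48.3 to 54.6 CPM in NSP, and MAP3K15 had 0.435 to 4.73 CPM in SP and 0.646 to 1.26 CPM in NSP. MAP3K19 stayed under the filter with 29 reads in SP and 9 in NSP.

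Of the 4 MAP4K genes, MAP4K1 alone was called. It encodes HPK1, a kinase expressed mainly in blood cells that restrains T cell receptor signaling. Its level was 35.2, 28.7, 44 and 32 CPM in SP. In NSP it was 0.765, 0, 0.349 and 0 CPM, that is 17, 0, 7 and 0 reads against 459 to 819 reads in an SP library. No NSP library came near an SP library. The fitted log2 fold change of 8.26 ± 1.07 (SE, limma-voom adjusted p = 0.000452) rests on the 0.5 reads added to each count, since 2 NSP libraries had none. It was 5.61 with limma-trend, and the 2481 reads of SP against 24 of NSP made a 123.7-fold difference after scaling. PTPRC, the common leukocyte antigen CD45, had 249, 272, 381 and 83.9 CPM in SP and 35 reads in all of NSP. The sum of the 6 pan-leukocyte markers, PTPRC among them, was 1536 to 4769 CPM in SP and 215.5 to 590.7 CPM in NSP. For 6 T and NK cell markers the sum was 501.9 to 1356 CPM in SP and 3.05 to 7.83 CPM in NSP. It was 267 to 802.9 CPM and 0 to 0.90 CPM for 4 B and plasma cell markers, and 229.5 to 412 CPM and 23.7 to 38.8 CPM for 5 myeloid markers. The part of leukocyte RNA in the MAP4K1 difference was not tested.

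MAP4K4, a kinase of many tissues, had 122, 75.8, 101 and 114 CPM in SP and 134, 94.4, 78 and 102 CPM in NSP. Its ranges overlapped almost completely, and the 95% interval of its log2 fold change of 0.02 ran from -0.52 to 0.56. The log2 ratio of MAP4K4 to MAP4K1 reads was 1.2 to 1.83 in SP and 7.41 to 12.0 in NSP, without overlap (exact permutation p = 0.0286, adjusted p = 0.05 over 7 pairs). The values near 12.0 are those of NSP 2 and NSP 4, which had no MAP4K1 read, so they are set by the 0.5 reads added. MAP4K5 had 5.85 to 56.7 CPM in SP and 24.1 to 32.8 CPM in NSP, and MAP4K3 3.55 to 20.1 CPM and 8.5 to 15.2 CPM. SP 4 held the lowest value of both genes and SP 1 the highest, and neither was called.

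Among the DUSP genes, 5 of 15 tested were called (33.3% against 30.7% of all genes tested), 3 as higher and 2 as lower. The 2 lower ones held in every alternative. DUSP14, also known as MKP6, is a small phosphatase that acts on MAP kinases and on the TAK1 complex. It had 37.7, 34.6, 38.2 and 56.8 CPM in SP and 235, 234, 140 and 262 CPM in NSP. SP 4 was the highest SP library and NSP 3 the lowest NSP library, and a wide gap remained between them. Its log2 fold change was -2.38 ± 0.27 (SE, limma-voom adjusted p = 0.00031). DUSP7, also known as PYST2, is a cytoplasmic phosphatase that acts mainly on ERK. Its values were 23.9, 21.2, 26.7 and 52.2 CPM in SP and 116, 134, 121 and 117 CPM in NSP. The NSP libraries were close together, and all lay above SP 4, the highest SP library. For DUSP7 the log2 fold change was -2.10 ± 0.28 (SE, limma-voom adjusted p = 0.000536).

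The 3 DUSP genes called higher were less firm. DUSP10, also known as MKP5, acts on p38 and JNK. It was read at 39.5, 55.5, 47.7 and 40.4 CPM in SP and at 36.5, 20, 9.88 and 20.8 CPM in NSP, so that NSP 1 came close to SP 1. Its log2 fold change was 1.19 ± 0.36 (SE, limma-voom adjusted p = 0.029). The call was kept without SP 1 or NSP 1, and it was lost without any 1 of the other 6 libraries (adjusted p up to 0.0706) and with upper-quartile factors (0.0566). DUSP23 is a small atypical phosphatase. It had 15.5, 38.7, 34.5 and 59.3 CPM in SP and 12.9, 15.2, 10.7 and 11.1 CPM in NSP, and SP 1 was barely above NSP 2. DUSP23 had a log2 fold change of 1.40 ± 0.42 (SE, limma-voom adjusted p = 0.0291), and the call was kept without SP 1 and lost without each other library (adjusted p up to 0.0902). DUSP11, which carries the family name but acts on RNA 5′ ends, had 38.8, 53.8, 66.1 and 55.7 CPM in SP and 24.9, 32.8, 29.7 and 35.4 CPM in NSP. Here too SP 1 was the SP library nearest to NSP. The log2 fold change of 0.79 ± 0.25 (SE, limma-voom adjusted p = 0.0362) was kept without SP 1 and lost without each other library (adjusted p up to 0.179), with median-ratio (0.0647) and upper-quartile factors (0.0873) and without the filter (0.0522).

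The DUSP genes with the highest levels per length were not called. Exon length differs between genes, so levels of different genes are compared as CPM per kilobase of exon. On that scale DUSP1 was first in both groups (430.1 CPM per kb in SP, 506.2 in NSP). DUSP5 (336.1) and DUSP6 (265) followed in SP. In NSP MAPK13 (216.3), DUSP6 (212.8) and DUSP5 (210.5) came next, with differences smaller than their SDs over libraries. MAPK13 was at rank 10 in SP with 43.5 CPM per kb. DUSP14 was at rank 7 in NSP (108.8) and had 20.9 CPM per kb in SP, and SPRY4 had 27.2 CPM per kb in SP and 0.553 in NSP. These positions describe the group means and depend on the exon models of the annotation.

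DUSP6, also known as MKP3, is the cytoplasmic ERK phosphatase and a standard readout of ERK activity. Its level was 240, 465, 723 and 1064 CPM in SP and 452, 618, 407 and 524 CPM in NSP. SP 1 lay below all NSP libraries, and SP 3 and SP 4 lay above them. Over all 8 libraries the log2 fold change was 0.14, with a 95% interval from -0.76 to 1.03 (limma-voom adjusted p = 0.83), and it was -0.36 without SP 4 and 0.53 without SP 1. DUSP5, its nuclear counterpart, had 576, 784, 556 and 1122 CPM in SP and 422, 543, 531 and 405 CPM in NSP. The groups did not overlap, with SP 3 just above NSP 2, yet the log2 fold change of 0.63 ± 0.27 was not called (SE, limma-voom adjusted p = 0.0994), except with sample quality weights (limma-voom adjusted p = 0.0360). The log2 ratio of DUSP5 to DUSP6 was 1.26, 0.75, -0.38 and 0.08 in SP and -0.10, -0.19, 0.39 and -0.37 in NSP (exact permutation p = 0.286).

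DUSP1, also known as MKP1, is an immediate early gene that acts on p38, JNK and ERK. It had 327, 592, 391 and 782 CPM in SP and 547, 671, 587 and 657 CPM in NSP. SP 1 and SP 3 were below the NSP range and SP 4 above it, and the log2 fold change of -0.31 was not called (95% interval -0.95 to 0.32, limma-voom adjusted p = 0.44). Without SP 4 the gene was called lower (log2 fold change -0.70 with a limma-voom adjusted p = 0.0443), and without SP 1 the value was -0.12. The ratio of DUSP1 to DUSP6 overlapped between groups (exact permutation p = 0.314). DUSP2, a nuclear phosphatase known from activated leukocytes, had 94.3, 148, 197 and 191 CPM in SP and 169, 288, 181 and 137 CPM in NSP. Only SP 1 was outside the NSP range, and the gene was not called (limma-voom adjusted p = 0.487). The sum of 5 immediate early genes (FOS, JUN, EGR1, ATF3 and IER3) was 3811 to 8655 CPM in SP and 5902 to 9669 CPM in NSP. FOSB, JUNB, IER2 and the heat shock genes HSPA1A and DNAJB1 of the same list had no entry of their own. SP 1 had the lowest and SP 4 the highest SP value for that sum as well as for DUSP1.

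Several DUSP genes of lower level were near the threshold. DUSP16, also known as MKP7, acts on JNK and p38. Its values were 146, 185, 71.1 and 67 CPM in SP and 233, 175, 176 and 180 CPM in NSP. SP 2 alone lay within the NSP range, and without it the gene was called lower (limma-voom adjusted p = 0.0293, against 0.0887 with it), as with upper-quartile factors (0.0442). DUSP19, a phosphatase of the JNK branch, was below 1.3 CPM in all SP libraries (0.435, 0.672, 0.161 and 1.25 CPM) and at 2.11, 1.98, 2.49 and 1.79 CPM in NSP. The groups did not overlap and the log2 fold change was -2.03 ± 0.72 (SE, limma-voom adjusted p = 0.0539). It was called lower with either other scaling (0.0444 and 0.0387), with limma-trend (0.0297), with quality weights (0.0489) and without SP 4 (0.0284).

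DUSP26, DUSP12, DUSP3 and DUSP27 were not called with all libraries. DUSP26 had 22.4 and 14.7 CPM in SP 1 and SP 3 but 0 and 1.18 CPM in SP 2 and SP 4, against 12.5 to 22.3 CPM in NSP. It was called lower with quality weights (limma-voom adjusted p = 0.0283) and without SP 1 (0.0381), and its log2 fold change went from -3.31 to -1.11 without SP 2. DUSP12 had 4.11 to 18 CPM in SP and 3.29 to 8.68 CPM in NSP, and DUSP3, also known as VHR, had 2.23 to 6.13 CPM in SP and 0.0499 to 3.55 CPM in NSP. Both had overlapping groups and positive log2 fold changes of 1.23 ± 0.56 and 2.05 ± 1.00 (SE). DUSP12 was called higher with quality weights (limma-voom adjusted p = 0.0117) and without SP 4 (0.0291), and the DUSP3 value was 0.91 without NSP 3. DUSP27 ranged from 0.699 to 19 CPM in SP and from 3.79 to 14.8 CPM in NSP, with a log2 fold change of -0.59 that was 0.43 without SP 3.

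Below the filter, DUSP13 had 3 reads in SP and 101 in NSP. It was 28.1-fold lower in SP, with a 95% interval from 9.35 to 138.7 that covers counting error alone, and NSP 2 held most of the signal (3.55 CPM against 0 to 0.58 CPM in the other NSP libraries). Without NSP 2 it was 8.98-fold lower (2.73 to 46.6). In the authors' deposited table it has a corrected p of 0.032148. DUSP15 had 22 reads in SP and none in NSP, at least 8.78-fold higher in SP when 3 reads over the group are taken as the limit of a count of 0. SP 2 held 15 of these reads, and without it the bound was 3.85-fold. DUSP21 had no read in any library, which allows up to 3 reads over a group.

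The Sprouty genes went in opposite directions. SPRY4 encodes an inhibitor of receptor tyrosine kinase signaling whose transcription follows ERK activity in many cells. Its level was 38.9, 110, 90.6 and 239 CPM in SP and 2.79, 3.65, 1.5 and 1.79 CPM in NSP. Every SP library was more than 10 times above every NSP library. For SPRY4 the log2 fold change was 5.38 ± 0.86 (SE, 95% interval 3.48 to 7.29, limma-voom adjusted p = 0.00136). SPRY2 encodes a Sprouty protein found in many epithelia. It had 26.3, 24.4, 61 and 68.2 CPM in SP and 110, 126, 95.2 and 78.1 CPM in NSP. Both SP pairs, SP 1 with SP 2 and SP 3 with SP 4, were below all NSP libraries. Its log2 fold change was -1.34 ± 0.36 (SE, limma-voom adjusted p = 0.0168) and was no longer called without SP 2 or NSP 2 (adjusted p up to 0.0511).

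SPRY1, a Sprouty gene known from kidney development, had 40.7, 165, 280 and 455 CPM in SP and 107, 102, 87.6 and 123 CPM in NSP. SP 1 was below every NSP library and the other 3 were above. With all libraries its log2 fold change was 0.71 ± 0.60 (SE, limma-voom adjusted p = 0.401), and without SP 1 it was 1.41 and called (limma-voom adjusted p = 0.0101). Without SP 4 it was 0.08 (limma-voom adjusted p = 0.919), so each of these libraries decides the value. The log2 ratio of SPRY4 to SPRY2 was 0.56 to 2.16 in SP and -5.97 to -5.10 in NSP. This was a difference of 6.72 without overlap (exact permutation p = 0.0286, adjusted p = 0.05 over 7 pairs). Every SP library was above all NSP libraries for SPRY4 and below them for SPRY2, so this ratio had to separate the groups and its test adds no support of its own. The log2 ratio of SPRY1 to SPRY2 was 0.63, 2.75, 2.20 and 2.74 in SP and -0.04, -0.31, -0.12 and 0.66 in NSP. Only SP 1 fell within the NSP range (exact permutation p = 0.0571, adjusted p = 0.08).

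**Figure D3:**
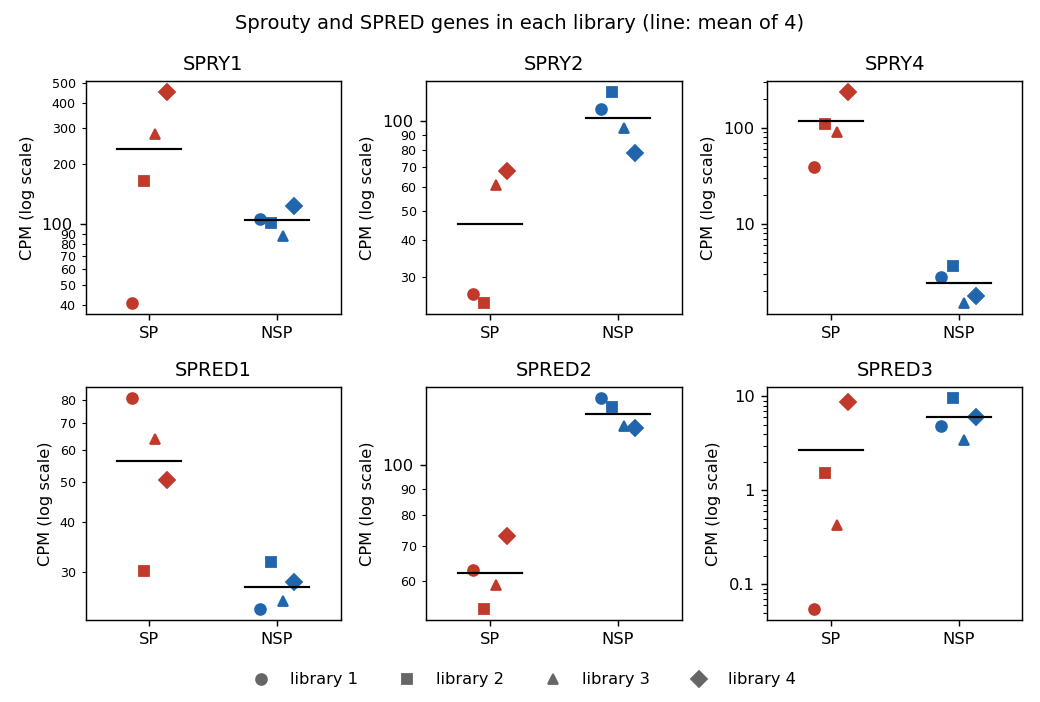
Level of the 6 Sprouty and SPRED genes in each library (CPM, log axis with a range of its own per panel); symbols are libraries 1 to 4 and lines are group means. SPRY4 separates the groups most, SPRY2 and SPRED2 are lower in every SP library, and SPRY1 in SP runs from 40.7 to 455 CPM around the narrow NSP range of 87.6 to 123 CPM.

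The SPRED proteins bring the RAS inhibitor neurofibromin to the membrane. SPRED2 had 62.9, 52.9, 58.7 and 73.2 CPM in SP and 134, 129, 119 and 117 CPM in NSP. Both groups were tight and far apart. SPRED2 thus had a log2 fold change of -1.03 ± 0.20 (SE, limma-voom adjusted p = 0.00364). SPRED1 had 80.9, 30.3, 63.9 and 50.5 CPM in SP and 24.3, 31.9, 25.5 and 28.4 CPM in NSP. SP 2 lay within the NSP range, which made SPRED1 the one called gene whose groups overlapped. Its log2 fold change of 0.95 ± 0.32 (SE, limma-voom adjusted p = 0.0471) was kept without SP 2 and lost without each other library (adjusted p up to 0.158), with median-ratio (0.0770) and upper-quartile factors (0.103), without the filter (0.0617) and with quality weights (0.0739). The log2 ratio of SPRED2 to SPRED1 was -0.36 to 0.80 in SP and 2.02 to 2.47 in NSP (exact permutation p = 0.0286, adjusted p = 0.05 over 7 pairs). SPRED3 had 0.0543, 1.55, 0.43 and 8.7 CPM in SP and 4.9, 9.69, 3.44 and 5.99 CPM in NSP. SP 4 was within the NSP range and the other 3 were below it. The gene was called lower without SP 4 (log2 fold change -4.0 with a limma-voom adjusted p = 0.0179) and with quality weights (0.0274), but not otherwise (-2.84 and 0.0628 with all libraries, -1.73 without SP 1).

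**Figure D4:**
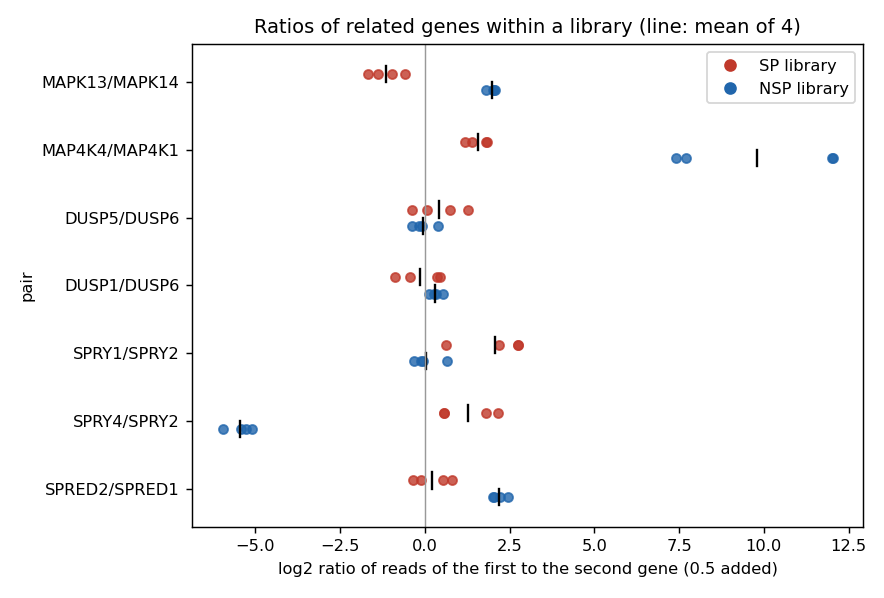
log2 ratio of the reads of paired genes within a library (0.5 reads added to each), for SP (red) and NSP (blue), with group means as black lines. The groups do not overlap for MAPK13 to MAPK14, MAP4K4 to MAP4K1, SPRY4 to SPRY2 and SPRED2 to SPRED1, and they overlap for the other 3 pairs.

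Within SP, 11 of the 46 tested genes were lowest in SP 1 and highest in SP 4: SPRY1, SPRY4, SPRED3, DUSP1, DUSP6, DUSP23, MAP3K3, MAP3K13, MAP2K1, MAPK3 and MAPK14. The sum of 7 endothelial markers was 1047, 3573, 4019 and 9856 CPM in the same libraries, also lowest in SP 1 and highest in SP 4. So was the sum of 5 immediate early genes (3811, 6931, 5479 and 8655 CPM). PECAM1, the endothelial adhesion molecule CD31, had 222, 654, 676 and 1195 CPM there and 7 reads in all of NSP. The sum of 12 epithelial markers had another order, 6614, 3168, 809.4 and 5640 CPM. Melanocyte (12910, 1829, 7986 and 2462 CPM) and Schwann cell sums (1015, 232.7, 563.1 and 357.8 CPM) were highest in SP 1. The pan-leukocyte sum was lowest in SP 4 (1536 CPM). T and NK cell and stromal sums were lowest in SP 1 and highest in SP 3. The B and plasma cell sum was lowest in SP 2 and highest in SP 4, and the myeloid sum was lowest in SP 2 and highest in SP 1. Of all 8 libraries SP 1 also had the highest scaling factor (1.129) and SP 4 the lowest (0.923). The part of scaling in these orders was not tested. In NSP the endothelial sum was 0.966 to 2.63 CPM, DUSP6 was at 407 to 618 CPM, SPRY1 at 87.6 to 123 CPM and SPRY4 at 1.5 to 3.65 CPM. The part of endothelial RNA or of the immediate early response in the SP values was not tested. SP 4 was the highest SP library for 20 of the 46 tested genes and the lowest for 12. How often these orders occur among all genes tested was not counted.

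**Figure D5:**
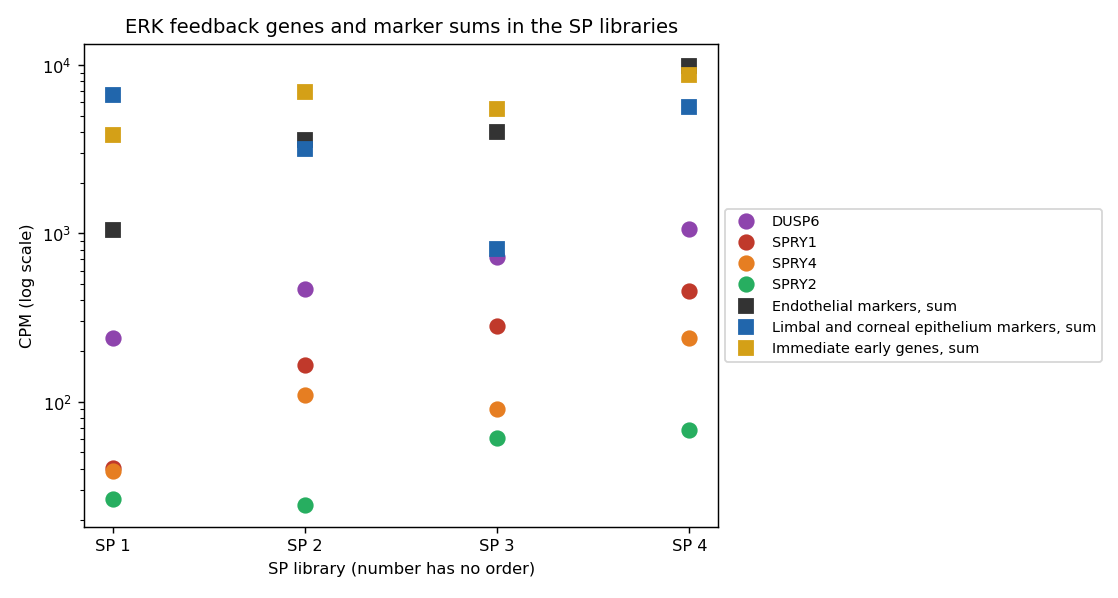
DUSP6 and the Sprouty genes (circles) and the summed endothelial, epithelial and immediate early genes (squares) in the 4 SP libraries, in CPM on a log axis; the library number has no order. DUSP6, SPRY1, SPRY4 and the endothelial and immediate early sums are lowest in SP 1 and highest in SP 4, and the epithelial sum is lowest in SP 3.

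Other genes of these pathways were counted in 5 lists chosen with earlier results of these data known. Of 115 genes listed, 75 had an entry of their own and 72 were tested, so the lists cover these pathways only in part. Of the 72 tested, 14 were higher and 9 lower in SP, which is 31.9% against 30.7% of all genes. From receptor to RAF, 24 of 37 listed genes had an entry, and HRAS, BRAF, GRB2 and PTPN11 were among those without. Of the 23 tested, 4 were higher and 3 lower (30.4% called). GAB2, an adaptor that leukocytes use, had a log2 fold change of 6.21 ± 0.74 (SE, limma-voom adjusted p = 0.000344), and the RAS relative MRAS one of 2.33 ± 0.51 (0.00696). The scaffold genes KSR1 (-1.70 ± 0.29, SE, limma-voom adjusted p = 0.00182) and CNKSR1 (-2.47 ± 0.43, 0.00206) were lower.

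In the list of adaptors, scaffolds and other upstream genes of the stress branch, 2 of 16 genes were higher and 1 was lower. That is 18.8% called, against 30.7% of all genes tested. The arrestin gene ARRB2 averaged 139 ± 35.8 CPM in SP against 14.8 ± 1.42 CPM in NSP (SD, n = 4 each; limma-voom adjusted p = 0.000142). TRAF5, an adaptor of tumor necrosis factor receptors, was also higher (log2 fold change 2.51 ± 0.40, SE, limma-voom adjusted p = 0.00125), and the kinase gene MINK1 was lower (-0.97 ± 0.29, 0.0269). Of 7 kinases below the MAP kinases, 2 were higher and 1 was lower (42.9% called). RPS6KA5, which encodes MSK1, had a log2 fold change of 1.06 ± 0.27 (SE, limma-voom adjusted p = 0.0135). MKNK1, which phosphorylates the translation factor eIF4E, had 1.54 ± 0.42 (0.0192), and RPS6KA6, a kinase of the RSK family, had -2.68 ± 0.76 (0.0227). The MINK1 call was lost without SP 1, SP 2, SP 3, NSP 2 or NSP 4, that of RPS6KA5 without NSP 1, that of MKNK1 without NSP 3, and that of RPS6KA6 without SP 3 or NSP 2 and with quality weights (limma-voom adjusted p = 0.0639).

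Nuclear targets and ERK output genes went both ways, with 4 of 20 higher and 4 lower (40% called against 30.7% of all genes tested). FOSL1, an AP-1 subunit gene and a classical ERK target, averaged 41.6 ± 26.6 CPM in SP against 409 ± 53.0 CPM in NSP (SD, n = 4 each; log2 fold change -3.50 with a limma-voom adjusted p = 0.000165). ETV5, an ETS factor often induced by growth factors, was lower as well (-1.41 ± 0.27, SE, limma-voom adjusted p = 0.00323). MEF2C, a transcription factor that p38 and ERK5 phosphorylate, had a log2 fold change of 5.07 ± 0.42 (SE, limma-voom adjusted p = 8.88e-05). ELK3, an ETS factor of the ternary complex group, was higher too (1.60 ± 0.32, SE, limma-voom adjusted p = 0.00446). Among 6 other phosphatases of MAP kinases, PTPN7, a phosphatase of leukocytes, averaged 36.9 ± 16.4 CPM in SP against 0.152 ± 0.150 CPM in NSP (SD, n = 4 each; limma-voom adjusted p = 0.000858). PPM1D, a stress-induced phosphatase, was higher by 0.87 on the log2 scale (limma-voom adjusted p = 0.0268), a call lost with upper-quartile factors (0.0603) and without SP 2, SP 3 or any 1 NSP library.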

How the data were processed

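Per the labels, SP and NSP cells of rabbit limbal epithelium were sorted after Hoechst staining. The authors deposited 1 text table of 163 fields, 8 characters wide and in 6 stacked blocks, read here by character position. The field used per library held whole numbers throughout and was read as the count of exon reads (deposited group means recomputed within 0.05), and another field as exon length. The other 134 per-library fields were not used. For the aligner, build and annotation: not given in the sources used here. Headers show the group only, and library numbers 1 to 4 follow the columns. Names occurring once were used, with no coordinates.

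Counts were scaled with TMM factors (trims 30% and 5%). Genes with at least 0.508 CPM in 4 libraries and 15 reads in all were tested with limma-voom (limma 3.58.1, R 4.3.3; offset 0.5; group only; two-sided), with Benjamini-Hochberg adjustment at 0.05. Columns in which fields touch could not be entered as counts, so no negative binomial count test was run. Ratios were tested by exact permutation. The alternatives tried were upper-quartile and median-ratio factors, 2 other filters, limma-trend, sample quality weights and each library left out.

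Members and lists were chosen with earlier results of these data known. Named were 30 fixed genes, up to 4 called genes per family and direction, genes with a library far from its group, genes with few reads or under the filter, and up to 2 genes per pathway list and direction. Tested on simulated counts of this comparison (10107 genes), the procedure called 17 of 99 genes changed 2-fold, 66 of 98 changed 8-fold and 5 of 9910 unchanged. Only those 99 and 98 genes of the fit were changed, while 30.7% of genes were called in the data. With so few changed genes the adjustment is stricter, so these counts do not give the detection rate in the data. Parsing and figures used Python 3.11.15 and pandas 2.3.3.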

Additional observations from a re-analysis of the deposited data

Results flagged for a closer look

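In 12 of 99 groups of 4 libraries checked, 1 library lay far from the other 3 by Dixon's ratio at its 95% critical value, and chance alone flags about 1 group in 20. SP 4 was that library for 4 genes, each time as the highest: DUSP14 at 56.8 CPM (others 34.6 to 38.2), MAP3K13 at 20.1 CPM (others 8.80 to 10.3), MAP3K14 at 161 CPM (others 38.2 to 59.0) and MAP3K4 at 77.2 CPM (others 39.8 to 45.5). In the other SP libraries, MAP3K12 was low in SP 2 at 32.7 CPM (others 41.2 to 42.6), and all MAPK4 reads of the group were in SP 3, at 0.538 CPM.

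NSP 3 stood apart for 3 genes: DUSP12 at 8.68 CPM (others 3.29 to 4.00), MAP3K12 at 62.9 CPM (others 19.2 to 22.7) and MAP3K19 at 0.399 CPM (others 0 to 0.045). NSP 2 did so for DUSP13, with 3.55 CPM against 0 to 0.58 in the others, and for MAP3K13, with 0.646 CPM against 11.6 to 13.4. In NSP 1 it was DUSP16, at 233 CPM against 175 to 180.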

How the results depend on the processing

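No result changed its direction as a call under any of the alternatives run. Members called higher numbered 9, and 5 with upper-quartile factors. With sample quality weights 12 were higher and 9 lower, in a fit that called 39.4% of all genes. With 1 library left out, members called higher ranged from 3 (without NSP 4) to 10 and members called lower from 5 to 9. Over all genes the same fits gave 1168 (without NSP 1) to 1953 higher and 959 to 1794 lower, and over the other pathway genes 9 (without NSP 3 or NSP 4) to 18 higher and 6 to 12 lower. Of 120 fits of a called member with 1 library left out, 83 kept the call and 37 lost it, and of 90 fits with another setting 80 kept it and 10 lost it. Of the 31 members not called, 11 were called in at least 1 alternative and 20 in none. Fits without a library test fewer samples. Without SP 1 the adjusted p of 5 ratios went to 0.04 because SPRY1 to SPRY2 then also reached the smallest exact permutation p (0.0286), which says nothing on the stability of the other ratios. With 1 library left out the log2 differences ranged from -3.33 to -2.96 for MAPK13 to MAPK14, -9.02 to -7.48 for MAP4K4 to MAP4K1 (set in part by the 0.5 reads added where NSP had none), 6.43 to 6.96 for SPRY4 to SPRY2, 1.81 to 2.52 for SPRY1 to SPRY2 and -2.17 to -1.78 for SPRED2 to SPRED1. No paired analysis was possible because the columns show the group and carry no replicate number, although the sample titles number both groups 1 to 4. Depth limits the genes read at under 1 CPM, among them MAPK4, MAP3K19, DUSP13, DUSP15 and MAP4K1 in NSP.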
